A study of Mus musculus with 2 samples.

Results

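Transcription factors that hold epithelial cells to a squamous or an intestinal identity meet at the anorectal junction, where the stratified lining of the anal canal gives way to the glandular epithelium of the rectum. Here 10 such genes, chosen by name, were followed in single cells of the mouse anorectal junction: Trp63, Sox2, Grhl3, Cdx1, Cdx2, Hnf4a, Elf3, Klf4, Klf5 and Sox9. All 10 were in both count tables, which together listed 32933 gene IDs. Levels were read in the 10 cell clusters that the authors had named, 4 in the normal library (Anal Canal, Basal, Suprabasal and Rectum) and 6 in the wounded library (Basal, Suprabasal, Regeneration, Wound_Stress, Hybrid and Rectum).

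Both libraries came from C57/BL6J mice carrying K17CreERT2 and R26RGFP, in which the Krt17 promoter drives an inducible Cre that marks Krt17+ cells of the transition zone (TZ) once tamoxifen is given. The controls carried the same alleles and were also induced, over 2 days, while the wounded mice had 2 injections of tamoxifen. Each library was 1 pool of at least 5 mice, sorted for living cells that carried EpCam and lacked CD45, CD11b, CD31 and PDGFRa. The wounded tissue was taken 1 week after an EDTA wound that removed rectal glands near the TZ, in mice of 2 to 4 months of age. The study gives no age for the normal pool itself, and its general statement on mice names a younger range. With 1 library per condition, no test between conditions was possible, cells are not replicates, and every interval below is a 95% interval that covers counting error only. The clusters had been built from these same cells and genes, so a difference between clusters is a description. The tables named 939 normal and 4147 wounded cells, with medians of 9724 and 10077 UMIs (unique molecular identifiers, each counting 1 captured RNA molecule) and no cell barcode in common. The other 9 clusters had medians from 8437.5 to 12616 UMIs, and Hybrid stood apart at 2390 UMIs. Rectum markers summed to 12891 and 11122 CPM (counts per 1000000 UMIs) in the Rectum clusters of the normal and the wounded library and to 265 to 951 CPM in the stratified ones, so those names matched their markers.

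By way of background, Trp63 encodes p63, the master regulator of stratified epithelia, which keeps basal cells attached and able to renew. SOX2 is a SOX-family factor of foregut, oral and other stratified progenitors, and GRHL3 is a grainyhead factor of late squamous differentiation and barrier formation. CDX1 and CDX2 are caudal homeobox proteins that specify the intestine, HNF4A is a nuclear receptor of the absorptive gut and liver, and ELF3 is an ETS factor of simple and secretory epithelia. KLF4 and KLF5 are zinc-finger factors used by both kinds of epithelium, KLF4 mainly in differentiating cells and KLF5 mainly in proliferating cells, and SOX9 marks progenitors of intestinal crypts as well as of hair follicles and ducts.

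The genes lie apart in the genome (GRCm38). Trp63 is at chr16:25683763-25892102 (plus strand), Sox2 at chr3:34650405-34652461 (plus) and Grhl3 at chr4:135541888-135573630 (minus). Cdx2 is at chr5:147300805-147307270 (minus), Hnf4a at chr2:163506808-163572910 (plus) and Elf3 at chr1:135253575-135258568 (minus). Klf4 is at chr4:55527143-55532466 (minus), Klf5 at chr14:99298691-99315036 (plus) and Sox9 at chr11:112782224-112787760 (plus). Hnf4a and Elf3 overlap antisense genes, Hnf4aos and Gm26642, and Sox2 lies inside the longer transcript Sox2ot of the same strand. Trp63 and Hnf4a also overlap genes of the same strand, the processed pseudogene Gm27005 and the small nuclear RNA gene Gm25881. Such overlaps can make the counts of Sox2, Trp63 and Hnf4a less certain, and their effect was not tested.

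Promoters in the RefSeq table (GRCm38.p6) were found for 6 of the 10 genes, with 7 starts in all, and the 250 bases before each start were searched on both strands for simple forms of the sites these families bind. The KLF site CCACCC was in 5 of the 7, against 28.1% of all 32851 promoters of that length, and the SOX site ACAAT was in the promoters of Elf3 and of the upstream start of Hnf4a, against 27.7%. No match was found in the 7 for the CDX site TTTATNG (9.81% of all promoters), the HNF4 site CAAAGTNC (3.40%), the AP-1 site TGANTCA (6.75%) or the grainyhead site AACCNGTT (1.79%). Shown here are the promoters of Hnf4a, with both starts, and of Elf3, genes past 2-fold higher in the Rectum than in the stratified cells. Those of Sox2, Cdx2 and Klf4 are not shown, and those of Sox2 and Klf4 held no match to any of these sites. The promoter of Grhl3, a gene highest in the normal Anal Canal and Suprabasal clusters, follows. Capitals mark KLF and SOX sites, the sequences run 5′ to 3′ on the strand of the gene, and bases that fall in an annotated exon of the same gene were left out. The KLF site of Elf3, and 1 of the 2 of the upstream Hnf4a start, lay in such bases. A match is no evidence of binding.
Hnf4a, upstream start, chr2:163506607-163506807, plus strand: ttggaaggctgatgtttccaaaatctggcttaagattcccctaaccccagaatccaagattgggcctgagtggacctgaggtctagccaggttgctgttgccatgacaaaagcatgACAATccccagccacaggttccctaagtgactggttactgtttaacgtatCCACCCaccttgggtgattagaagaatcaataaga
Hnf4a, downstream start, chr2:163546943-163547154, plus strand: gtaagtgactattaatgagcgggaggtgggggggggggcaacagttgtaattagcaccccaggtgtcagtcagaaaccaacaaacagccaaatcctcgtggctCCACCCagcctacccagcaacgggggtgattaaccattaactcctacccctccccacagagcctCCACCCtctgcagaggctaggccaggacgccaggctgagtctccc
Elf3, chr1:135258569-135258722, minus strand: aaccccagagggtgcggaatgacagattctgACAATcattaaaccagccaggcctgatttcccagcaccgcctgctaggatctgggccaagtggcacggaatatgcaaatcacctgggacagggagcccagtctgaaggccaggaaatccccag
Grhl3, chr4:135573633-135573882, minus strand: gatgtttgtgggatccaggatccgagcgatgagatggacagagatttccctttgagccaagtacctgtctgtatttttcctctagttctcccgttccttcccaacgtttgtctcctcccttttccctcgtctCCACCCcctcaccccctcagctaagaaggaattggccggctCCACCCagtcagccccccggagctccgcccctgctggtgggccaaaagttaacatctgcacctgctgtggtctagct
The libraries read the 3′ ends of transcripts, so they do not tell which start of Hnf4a was used.

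The first comparison asked how sharply the factors divide the rectal from the stratified cells. Trp63 stood at 186 CPM over the stratified cells of the normal library and at 1.42 CPM in the Rectum cluster, where it was 1 UMI in 1 of 63 cells. The log2 ratio of Rectum over stratified was -7.04 (-12.34 to -4.56). Cdx1 and Hnf4a ran the other way. Cdx1 stood at 361 CPM in Rectum and 0.961 CPM in the stratified cells, a log2 ratio of 8.55 (7.61 to 9.70), and Hnf4a at 114 and 0.427 CPM, a ratio of 8.06 (6.64 to 9.97). Elf3 was 10.2-fold higher in Rectum, at 214 against 21.0 CPM. Sox2 had no UMI in the normal Rectum against 175 in the stratified cells. With 3 UMIs in place of the 0 it was 4.38-fold lower, and its log2 ratio had an upper bound of -1.82. Grhl3 had 1 UMI against 152, a log2 ratio of -3.51 (-8.83 to -1.01).

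Of 9 factors with at least 20 UMIs over both sets of cells, 4 were past 2-fold higher in the normal Rectum (Cdx1, Hnf4a, Elf3 and Klf5) and 3 past 2-fold lower (Trp63, Sox2 and Grhl3). Over all genes with as many UMIs, 17.5% were past 2-fold higher and 14.9% lower. Cdx1 and Hnf4a reached that minimum through Rectum, with 9 and 4 UMIs in the stratified cells. The same 7 factors were past 2-fold on the same side in the wounded Rectum, where the shares over all genes were 18.4% higher and 15.7% lower. For Sox2 and Grhl3 the pooled stratified cells hide differences between clusters. Wounded Rectum had Sox2 at 3.41 CPM, against 2.85 CPM in Suprabasal and 2.77 CPM in Regeneration. Its Grhl3 was at 0.730 CPM, against 0.0769 CPM in Regeneration and no UMI in Wound_Stress. In the normal library the intervals of Rectum and Basal overlapped for both genes. In the wounded Rectum the ratios were smaller for the most restricted genes. Trp63 was at -3.74 (-4.13 to -3.38), with 14.8 CPM in Rectum and 198 CPM in the stratified cells, Cdx1 at 6.93 (6.54 to 7.34) and Hnf4a at 5.02 (4.68 to 5.38). The squamous keratin Krt14 moved with Trp63 in both libraries, at -6.53 (-6.90 to -6.18) in the normal and -3.85 (-3.92 to -3.77) in the wounded library. Without the 6% of barcodes that had the highest doublet scores, the wounded ratio of Trp63 was -4.51 and that of Sox2 -3.13 in place of -1.83. In wounded cells under 10% mitochondrial UMIs, Hnf4a was at 6.69 and Cdx1 at 7.86.

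**Figure D1:**
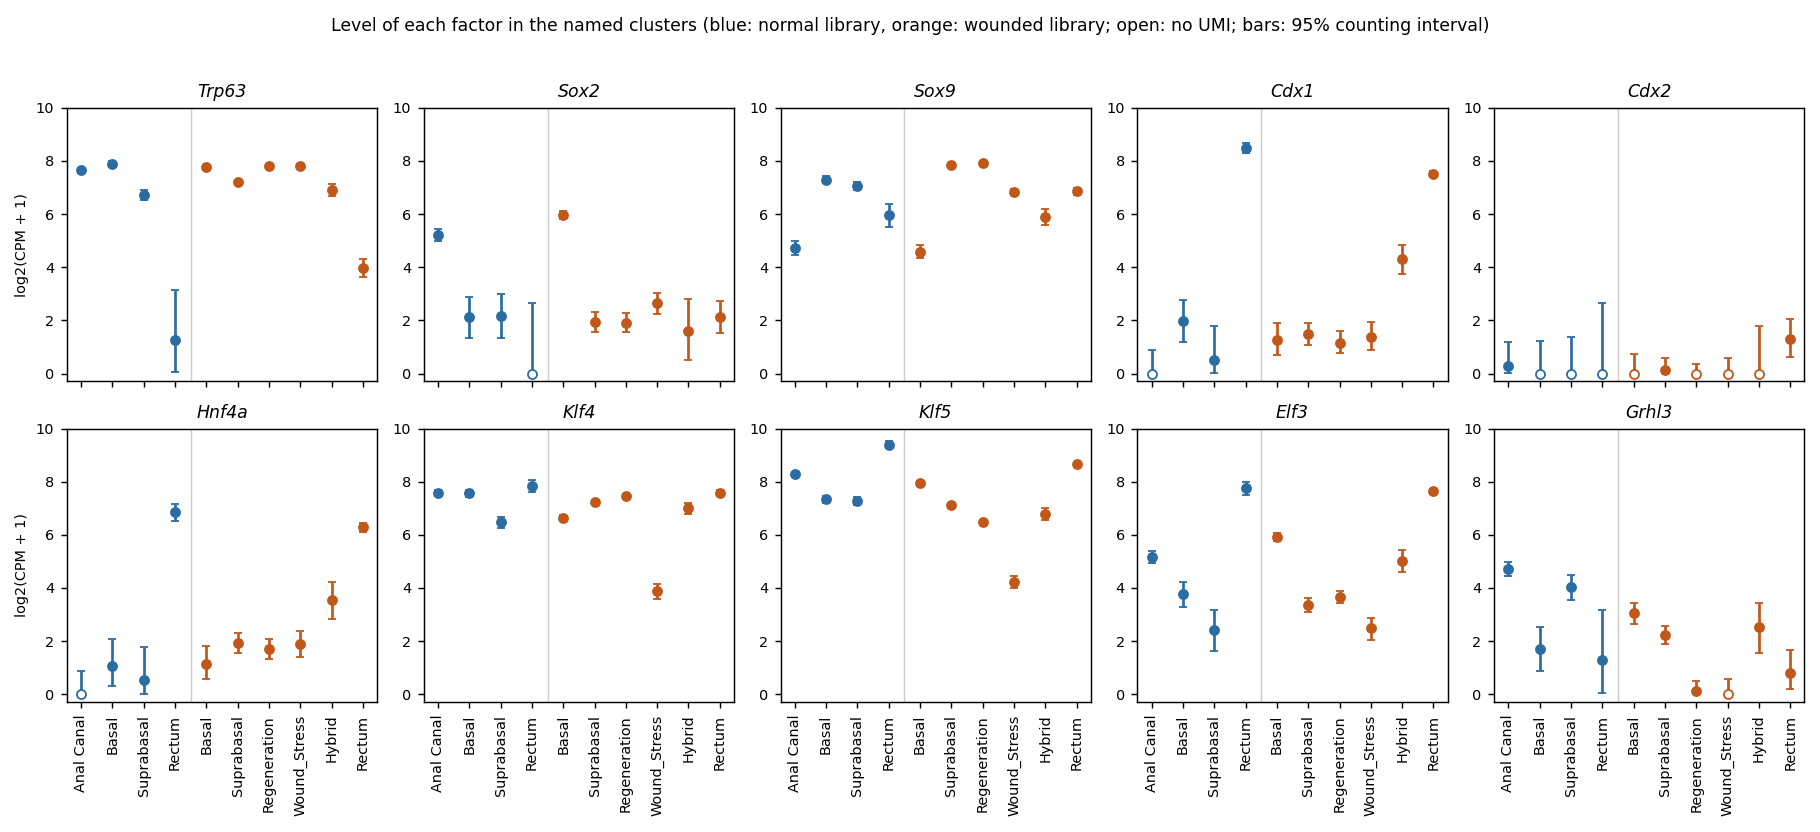
Level of each of the 10 factors in the 4 normal clusters (blue) and the 6 wounded clusters (orange), as log2(CPM + 1) on the vertical axis, with 95% counting intervals and open symbols where no UMI was found. Cdx1, Hnf4a and Elf3 peaked in the Rectum cluster of both libraries, Trp63 was near its floor there in the normal library, and Sox2 stood out in the normal Anal Canal (36.1 CPM) and in the wounded Basal cluster (61.0 CPM).

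Trp63 was otherwise broad. Its order in the normal library was Basal (233 CPM), Anal Canal (199.95 CPM), Suprabasal (104 CPM) and Rectum (1.42 CPM), each apart from the next by its interval. In the wounded library, Regeneration (222 CPM), Wound_Stress (222 CPM) and Basal (219.5 CPM) overlapped, followed by Suprabasal (147 CPM), Hybrid (119 CPM) and Rectum (14.8 CPM), each apart. A UMI of Trp63 was seen in 81.3% of normal Basal and in 6.55% of wounded Rectum cells, and after each cell was thinned to 2000 UMIs in 33.3% and 2.82%. The median depths of those clusters were alike, at 9971 and 9991 UMIs.

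Sox2 was the most local of the squamous factors. It reached 36.1 CPM (30.7 to 42.1) in the normal Anal Canal, 3.33 CPM in Basal and 3.505 CPM in Suprabasal, and in the wounded library 61.0 CPM (54.8 to 67.7) in the cluster named Basal against 2.02 to 5.23 CPM in the other 5. Each low cluster overlapped with the next in the order of levels. Grhl3 was highest in the normal Anal Canal (25.3 CPM) and Suprabasal (15.3 CPM), whose intervals overlapped, and low in Basal (2.22 CPM). In the wounded library Grhl3 reached no more than 7.32 CPM, in Basal, and was seen as 1 UMI in 991 Regeneration cells and as none in 838 Wound_Stress cells. At the thinned depth, 0 of 818 allows up to 0.450% of cells with a UMI, which sets no limit on cells that express the gene.

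Cdx2 was at the edge of detection. It had 6 UMIs in 6 of 397 wounded Rectum cells, 1 UMI in the normal Anal Canal, 1 in the wounded Suprabasal cluster and none in the remaining 7, so no ratio was read from it. The normal Rectum had no UMI of Cdx2 in 63 cells, where 0 of 60 thinned cells allows up to 5.96% with a UMI. Cdx1, by contrast, was seen in 56 of those 63 cells.

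The factors shared by both epithelia did not follow the squamous-to-rectal axis alone. Klf5 was highest in Rectum in both libraries (669 CPM normal, 399.7 CPM wounded), at log2 ratios over the stratified cells of 1.54 (1.39 to 1.68) and 1.83 (1.74 to 1.91). Klf4 was only modestly higher there, at 0.46 (0.22 to 0.70) and 0.62 (0.51 to 0.73), and the normal Rectum (226 CPM) overlapped with the Anal Canal (189 CPM), although thinned to 2000 UMIs the normal ratio was 1.10. Sox9 was somewhat lower in Rectum than in the stratified cells, at -0.55 (-1.02 to -0.10) and -0.63 (-0.77 to -0.49), yet it was still at 61.1 and 116 CPM there. Its lowest levels were in the normal Anal Canal (25.3 CPM) and the wounded Basal cluster (23.0 CPM), the same 2 clusters in which Sox2 was highest.

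Other genes of the same programmes were read as 4 lists. The target lists share genes with the markers by which the cluster names were checked. The p63-type targets share Krt5, Krt14, Col17a1, Itga6 and Itgb4 with the stratified basal markers. The CDX and HNF4A-type targets share Krt20, Muc13, Lgals4 and Cdh17 with the rectum markers. Counts of targets between Rectum and stratified cells therefore partly restate those markers and are no separate evidence. Of 15 further squamous factors, 10 of the 14 with enough UMIs were past 2-fold lower in the normal Rectum and none was higher, with a median log2 ratio of -2.40 beside 0.10 over all genes. Barx2, a homeobox gene, was lowest at -5.56 (-7.84 to -4.01). Of 18 further intestinal factors, all 12 with enough UMIs were higher, with a median of 4.03, led by Foxa3, a forkhead factor of gut endoderm, at 8.59 (5.999 to 13.94). Among p63-type targets 9 of 11 were lower, and among CDX and HNF4A-type targets all 11 measured were higher, led by Car1, a carbonic anhydrase of the colon, at 10.02 (8.14 to 13.08). In the wounded library the counts were 9 of 15 lower, 15 of 15 higher, 7 of 11 lower and 12 of 12 higher, with Grhl1 the lowest squamous factor at -5.11 (-6.99 to -3.75) and Atoh1, the factor of secretory cells, the highest intestinal factor at 8.91 (7.78 to 10.37).

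**Figure D2:**
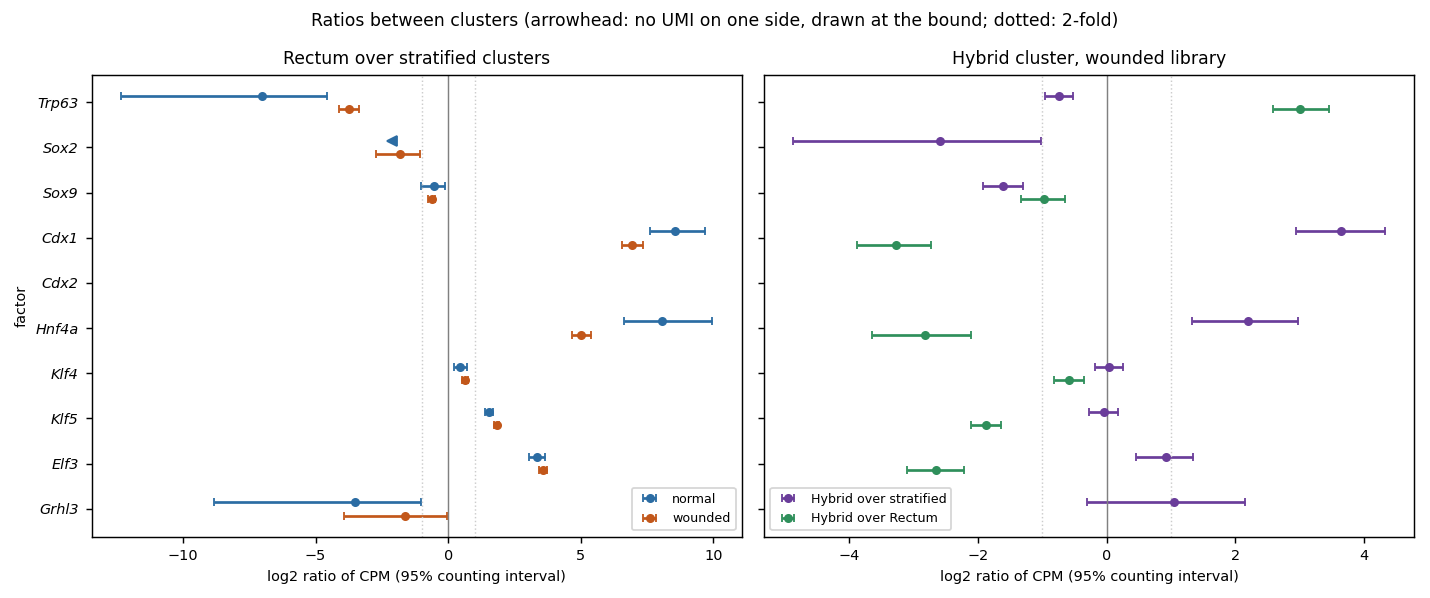
Log2 ratio of CPM for each factor, with 95% counting intervals and dotted lines at 2-fold. The first panel plots Rectum over stratified cells in the normal and the wounded library, where Cdx1 and Hnf4a are far to the right and Trp63 far to the left, and the second panel plots the wounded Hybrid cluster over the stratified cells and over Rectum, where Trp63 lies at -0.73 and at 3.01.

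Within the normal stratified cells, the Anal Canal was set against the TZ clusters, Basal and Suprabasal together. Sox2 was 10.6-fold higher in the Anal Canal, at 36.1 against 3.41 CPM, a log2 ratio of 3.40 (2.68 to 4.22). Elf3 and Grhl3 were also higher, at 1.99 (1.49 to 2.50) and 1.62 (1.10 to 2.18). Sox9 was 5.73-fold lower, at 25.3 against 145 CPM, while Trp63 differed little, at 0.20 (0.06 to 0.34). Klf5 was at 0.99 (0.86 to 1.11), just inside 2-fold, and Klf4 at 0.41 (0.27 to 0.56). Of 7 factors measured, 3 were past 2-fold higher and 1 lower, against 8.87% and 9.97% of all genes. Of the squamous companions, 4 of 14 were higher and none lower, among them Sox15, a SOX factor, at 2.40 (1.92 to 2.91). Another was Pax9, a paired-box factor, with 34 UMIs against 0, a log2 ratio of 3.69 with 3 UMIs in place of the 0. Foxa1, from the intestinal list, was at 4.73 (3.72 to 5.96), and Gata6 from the same list at -2.68 (-3.48 to -1.96). These values are not independent of the next comparison, since the Basal and Suprabasal cells enter both.

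From Basal to Suprabasal in the normal library, Trp63 was 2.24-fold lower, at 104 against 233 CPM, and Grhl3 6.91-fold higher, at 15.3 against 2.22 CPM (log2 ratio 2.79, 1.52 to 4.33). Klf4 was at -1.10 (-1.35 to -0.86) and Elf3 at -1.52 (-2.70 to -0.47), whereas Klf5 and Sox9 stayed within 2-fold, at -0.05 (-0.26 to 0.16) and -0.24 (-0.46 to -0.02). Of 6 factors measured 1 was past 2-fold higher and 3 lower, against 6.57% and 17.1% of all genes. Zfp750, a zinc-finger factor of terminal differentiation, was on the same side as Grhl3, at 2.18 (1.51 to 2.91). Of the p63-type targets 8 of 11 were lower, led by Dst, the hemidesmosomal plakin, at -2.77 (-3.27 to -2.30). Thinning each cell to 2000 UMIs left 1 factor past 2-fold in place of 4, and with means of per-cell levels Elf3 was at -0.63.

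The same pair of names in the wounded library gave another picture. Sox9 was 9.99-fold higher in Suprabasal, at 230 against 23.0 CPM, Sox2 was 21.4-fold lower and Elf3 6.46-fold lower. Trp63 was at -0.58 (-0.69 to -0.48), Klf4 at 0.60 (0.47 to 0.74) and Grhl3 at -0.98 (-1.63 to -0.33), the last opposite in sign to the normal library. Hnf4a was past 2-fold higher, at 1.22 (0.02 to 2.65), on 33 and 7 UMIs. Of 9 factors, 2 were past 2-fold higher and 2 lower, against 9.85% and 11.3% of all genes.

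The wounded cells named Basal did not carry the markers of the normal cells of that name. Krt17 was at 381 CPM there, against 2265 CPM in normal Basal and 704 CPM in the normal Anal Canal. Krt10, a keratin of the suprabasal anal canal, was at 1987 CPM, against 48.4 and 2228 CPM. The list of stratified suprabasal markers summed to 8589 CPM, against 569.7 CPM in normal Basal and 10247 CPM in the normal Anal Canal. For this reason the comparisons of wounded with normal Basal and Suprabasal cells are each given beside one with other normal clusters, added after these values were seen.

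Against the normal Basal cells, the wounded Basal cells had 18.3-fold more Sox2 (log2 ratio 4.20, 3.25 to 5.34), 4.75-fold more Elf3 and 3.30-fold more Grhl3, and 6.78-fold less Sox9 (-2.76, -3.06 to -2.48). Of 7 factors 3 were past 2-fold higher and 1 lower, against 15.6% and 13.6% of all genes. Against the normal Anal Canal cells, none was past 2-fold higher and 1 was lower, against 10.2% and 7.02% of all genes. Sox2 was then at 0.76 (0.48 to 1.04), Elf3 at 0.77 (0.50 to 1.06), Sox9 at -0.14 (-0.51 to 0.24) and Trp63 at 0.13 (0.01 to 0.26). Grhl3 was the 1 factor past 2-fold, at -1.79 (-2.34 to -1.27), with 7.32 CPM after wounding and 25.3 CPM in the normal Anal Canal. Thus the direction of Grhl3 in these cells turned with the normal cluster they were set against.

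**Figure D3:**
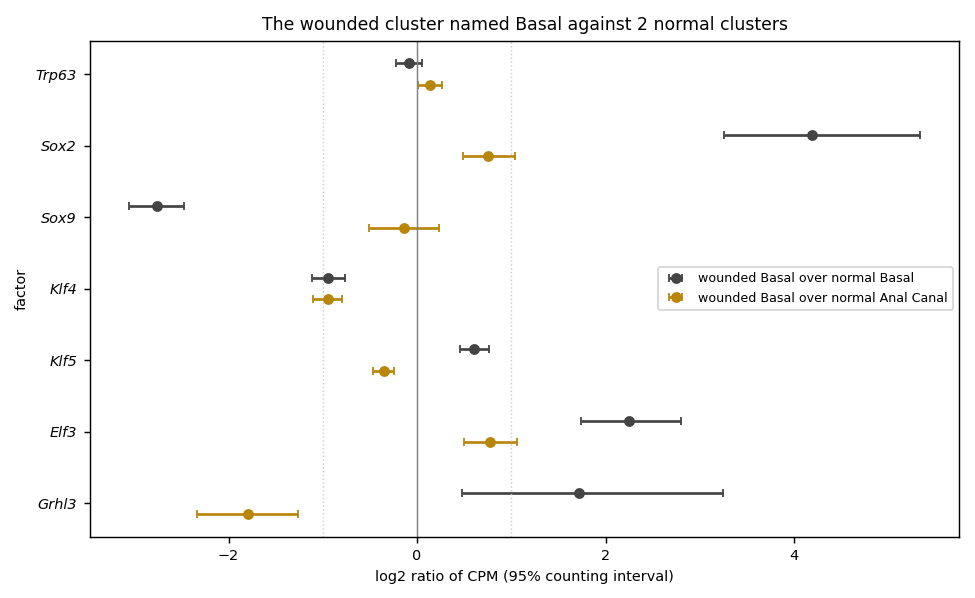
Log2 ratio of CPM, with 95% counting intervals, of the wounded cluster named Basal over 2 normal clusters, Basal and Anal Canal. Against normal Basal, Sox2 lies at 4.20 and Sox9 at -2.76, while against the normal Anal Canal 6 of the 7 factors lie inside the dotted 2-fold lines and Grhl3 lies at -1.79.

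Wounded Suprabasal cells, set against normal Suprabasal cells, had more Sox9, at 0.80 (0.62 to 0.97), and Klf4, at 0.76 (0.55 to 0.98), and 4.13-fold less Grhl3, at -2.05 (-2.72 to -1.36). The factors past 2-fold higher were Cdx1, Hnf4a and Elf3, each from 10 or fewer UMIs on the normal side. Cdx1 was at 2.05 (-0.59 to 7.42) on 21 and 1 UMIs, an interval that holds 0. Hnf4a had 33 UMIs in the wounded and 1 UMI in the normal cells, a log2 ratio of 2.70 (0.12 to 8.05). In cells that passed the filters but were in no named cluster, Hnf4a was also higher in the wounded library, at 2.28 against 0.167 CPM. Elf3, at 1.08 (0.14 to 2.18), was at -0.064 with means of per-cell levels and at -0.38 in cells under 10% mitochondrial UMIs. When each cell was thinned to 2000 UMIs none was past 2-fold, with Cdx1, Hnf4a and Grhl3 then under 20 UMIs. Beside the 3 higher and 1 lower of 9 factors, 16.2% and 5.63% of all genes were past 2-fold. Set against normal Basal and Suprabasal cells together, Hnf4a was the 1 factor higher, at 1.83 (0.34 to 3.79), and Grhl3 the 1 lower, at -1.15 (-1.80 to -0.49). The shares of all genes were 8.81% and 8.69%. Elf3 was then at 0.07 (-0.45 to 0.61) and Cdx1 at 0.008 (-1.18 to 1.32). The order of Grhl3 was therefore the same under both choices.

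Regeneration, a cluster found in the wounded library, resembled normal Basal cells in its level of Trp63, at -0.07 (-0.20 to 0.06), and of Sox2, at -0.27 (-1.35 to 0.97), the latter on 36 and 9 UMIs. Other clusters shared these levels, with Trp63 at 219.5 CPM in wounded Basal and 222 CPM in Wound_Stress. Sox2 was at 2.85 CPM in wounded and 3.505 CPM in normal Suprabasal. In Regeneration, Sox9 was 1.54-fold higher than in normal Basal cells (0.62, 0.47 to 0.77) and Klf5 1.83-fold lower. Hnf4a was at 1.01 (-0.68 to 3.37) on 29 and 3 UMIs and Cdx1 at -1.27 (-2.57 to 0.17) on 16 and 8 UMIs, intervals that hold 0. These were the 1 higher and 1 lower of 8 factors past 2-fold, against 11.6% and 13.8% of all genes. Against the wounded Basal cells, Regeneration had 10.4-fold more Sox9 and 22.0-fold less Sox2, and of 9 factors 1 was past 2-fold higher and 4 lower, against 11.8% and 13.8% of all genes.

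Wound_Stress was the cluster with the least Klf4, Klf5 and Elf3 of the wounded library. Klf4 was at 13.7 CPM (11.1 to 16.6), against 97.9 to 190.2 CPM in the other 5 clusters, Klf5 at 17.8 CPM (14.9 to 21.1), against 87.7 to 399.7 CPM, and Elf3 at 4.56 CPM. Its Trp63 was nonetheless at 222 CPM, as in Basal and Regeneration. Against the wounded Basal cells, Klf5 was 13.7-fold lower and Klf4 7.16-fold lower, while Sox9 was 4.90-fold higher. Grhl3 had no UMI against 42. With 3 UMIs in place of the 0 it was 18.2-fold lower, and its log2 ratio had an upper bound of -3.82. Of 9 factors 2 were past 2-fold higher and 5 lower, with a median of -2.84 beside 0.03 over all genes, where 10.3% were higher and 12.8% lower. The 2 higher were Sox9 and Hnf4a, the latter at 1.14 (-0.16 to 2.62) on 20 and 7 UMIs, an interval that holds 0. Of the squamous companions 9 of 14 were lower, lowest of them Sox15 at -8.08 (-13.39 to -5.58) on 1 and 208 UMIs, and Gata3, a GATA factor of the epidermis and hair, was the 1 higher at 1.90 (1.70 to 2.10). Of the p63-type targets 6 of 11 were lower and none higher. The Regeneration and Wound_Stress ratios share the Basal cells as their base.

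In the Rectum, wounded over normal, Trp63 was the 1 factor past 2-fold, at 61 UMIs against 1 UMI, a log2 ratio of 3.39 (0.85 to 8.71), and none was past 2-fold lower, where 11.6% of all genes were higher and 6.41% lower. That call was lost when each cell was thinned to 2000 UMIs and with at least 100 UMIs asked for, which left too few UMIs of Trp63, and under 3 other settings 2 factors were past 2-fold. Cdx1 was 1.97-fold lower, at 183 against 361 CPM (-0.98, -1.18 to -0.76), Klf5 1.67-fold lower and Hnf4a 1.48-fold lower. Sox9 was 1.89-fold higher, at 116 against 61.1 CPM (0.92, 0.47 to 1.41), but at 0.28 when thinned, and Klf4 and Elf3 differed little, at -0.25 (-0.49 to 0.01) and -0.11 (-0.37 to 0.15). The Trp63 value stood beside more squamous marker counts in the wounded Rectum, where the 6 stratified basal markers summed to 692 CPM, against 352 CPM in the normal Rectum, and the 6 stratified suprabasal markers to 506 and 109 CPM. Col17a1, a hemidesmosomal collagen, was at 0 in the normal Rectum. Without the barcodes of the highest doublet scores the log2 ratio of Trp63 was 2.59, and the part of squamous cells or doublets in it was not tested. Among the intestinal targets, Muc2, the goblet cell mucin, was at 2.46 (2.21 to 2.71) and Car1 at -1.43 (-1.70 to -1.14). The normal Rectum held 63 cells and the wounded Rectum 397, and which cells of the rectum each sort captured was not recorded in the sources used here.

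The Hybrid cluster, as its name says, might be read as a mix of both programmes, and its levels were set against each. Trp63 was at 119 CPM, a log2 ratio of -0.73 (-0.96 to -0.52) over the stratified cells and 3.01 (2.58 to 3.45) over Rectum. Cdx1 was at 18.9 CPM and Hnf4a at 10.8 CPM, at 3.65 (2.94 to 4.32) and 2.20 (1.33 to 2.97) over the stratified cells and at -3.28 (-3.88 to -2.74) and -2.83 (-3.65 to -2.11) over Rectum. Over the stratified cells 3 of 9 factors were past 2-fold higher (Cdx1, Hnf4a and Grhl3) and 2 lower (Sox2 and Sox9), against 19.2% and 6.62% of all genes. Grhl3 was at 1.05 (-0.30 to 2.16) on 7 UMIs in Hybrid, an interval that holds 0. Thinned to 2000 UMIs, the 3 higher ones had fewer than 20 UMIs and were not counted, which left the 2 lower. Sox9 was at -0.98 with means of per-cell levels and at -2.90 in cells under 10% mitochondrial UMIs, against -1.61, and Grhl3 at 0.11 in the latter cells. Over Rectum 1 of 7 was higher (Trp63) and 4 were lower (Cdx1, Hnf4a, Elf3 and Klf5), against 13.4% and 13.9%. Of the intestinal companions 7 of 11 were past 2-fold higher than in the stratified cells, led by Foxa2, a forkhead factor, at 6.06 (4.83 to 7.45), and Cdh17, an intestinal cadherin, was at 4.28 (3.75 to 4.81). Here too, a gene near 0 in the stratified cells could enter only through its UMIs in Hybrid.

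The same cluster held markers of several other cell types. The 8 enteroendocrine markers, genes of hormone-secreting gut cells, summed to 19732 CPM, against 57.7 to 928 CPM in the other wounded clusters, and all 8 were detected. The 8 endothelial markers summed to 325 CPM, against 0.536 to 8.76 CPM, although the sort excluded cells with CD31, an endothelial surface protein, and the 8 markers of the hair inner root sheath to 1987 CPM, against 19.5 to 456 CPM. Rectum markers summed to 1927 CPM and stratified basal markers to 3222 CPM. When cells with UMIs of at least 2 markers of another cell type were left out, 151 of the 316 remained, in which Cdx1 was at 2.03 and Hnf4a at 1.38 over the stratified cells, Grhl3 at 0.43, and Trp63 at -0.59. Cdx1 over Rectum was then at -4.90. Of the 151 cells, 4 had a UMI of Cdx1, Cdx2 or Hnf4a at full depth, against 30 of the 316, so these ratios rest on few cells. The marker lists are not specific to those types. Gata3 is in both the inner root sheath list and the list of squamous factors. The enteroendocrine list summed to 2480 CPM in normal Suprabasal cells, with 4 of its 8 genes at 0 there. The filter can therefore also leave out squamous cells. The stratified and Rectum cells were not filtered in this way. The intestinal factors were thus lower in the Hybrid cells left, and the part of these other types in the remaining level was not tested.

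The factors were next read within the stratified cells along markers of differentiation and division, in cells thinned to 2000 UMIs and at full depth. The marker is seen in more cells at full depth, so the split itself changes. Cells with a UMI of Krt10 had less Trp63 than cells without one, at -0.80 (-1.27 to -0.35) in the normal and -0.62 (-0.91 to -0.33) in the wounded library thinned, and at -0.41 and -0.36 at full depth. They had more Klf5, at 0.51 (0.16 to 0.85) and 1.21 (0.94 to 1.48), and at 0.40 and 0.62 at full depth. Sox9 depended on the depth. It was at -1.45 (-2.32 to -0.68) and -1.45 (-1.91 to -1.02) thinned, and at -0.81 (-1.01 to -0.61) and -0.32 (-0.40 to -0.24) at full depth, where it was at 0.31 (0.18 to 0.43) within Regeneration. The clusters differ in Krt10, so the pooled ratios also carry differences between clusters. Within the wounded Basal cluster, where 194 of 564 thinned cells had a UMI of Krt10, Trp63 was at -1.18 (-1.64 to -0.75), Elf3, the ETS factor, at -2.18 (-3.44 to -1.12) and Klf4 at 1.02 (0.41 to 1.64), and at full depth they were at -0.72, -2.85 and 0.48. Sox2 was at -0.83 (-1.63 to -0.10) there, opposite in sign to its value of 1.27 (0.55 to 1.93) over all wounded stratified cells. Within the normal Anal Canal Trp63 was at -0.90 (-1.46 to -0.36), and Klf4 was at 0.07 (-0.55 to 0.66) thinned and 0.87 (0.61 to 1.13) at full depth.

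Cells with a UMI of Mki67 or Top2a, genes of dividing cells, had more Sox2, at 1.67 (0.35 to 2.89) in the normal and 1.39 (0.78 to 1.97) in the wounded stratified cells, and within the wounded Basal cluster at 1.05 (0.40 to 1.70). At full depth these ratios were 1.08, 1.12 and 0.82. The thinned normal ratio rested on 9 and 19 UMIs. Of the 175 UMIs of Sox2 in the normal stratified cells, 158 were in the Anal Canal. The pooled normal ratio can therefore also carry differences between clusters. Trp63 was at 0.43 (0.25 to 0.60) in the wounded and 0.19 (-0.26 to 0.62) in the normal cells, and at 0.38 and 0.30 at full depth. Klf4 was at -0.42 (-0.75 to -0.11) in the wounded cells and -0.27 (-0.37 to -0.18) at full depth. In the normal cells it was at -0.75 (-1.51 to -0.07) thinned but at 0.05 (-0.11 to 0.20) at full depth, so no direction was read there. Sox9 was at -1.995 (-3.46 to -0.84) and -0.36 (-0.62 to -0.11), and at -0.90 and -0.10 at full depth. Within single clusters low in Sox9 its ratio did not stay below 0, at 0.50 (-1.28 to 1.99) in the normal Anal Canal and 0.36 (-1.30 to 1.83) in the wounded Basal cells. In dividing cells of the wounded Rectum, Cdx1 was at 0.41 (-0.19 to 0.98) and Hnf4a at 0.22 (-0.74 to 1.11). Wounded Rectum cells with a UMI of Krt20, a keratin of surface colonocytes, had more Klf4, at 1.28 (0.61 to 1.89) thinned and 0.83 (0.60 to 1.05) at full depth. They had less Cdx1, at -2.39 (-5.45 to -0.51) on 2 UMIs in 28 thinned cells with the marker, and at -0.49 (-0.80 to -0.20) on 109 UMIs in 73 cells at full depth.

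**Figure D4:**
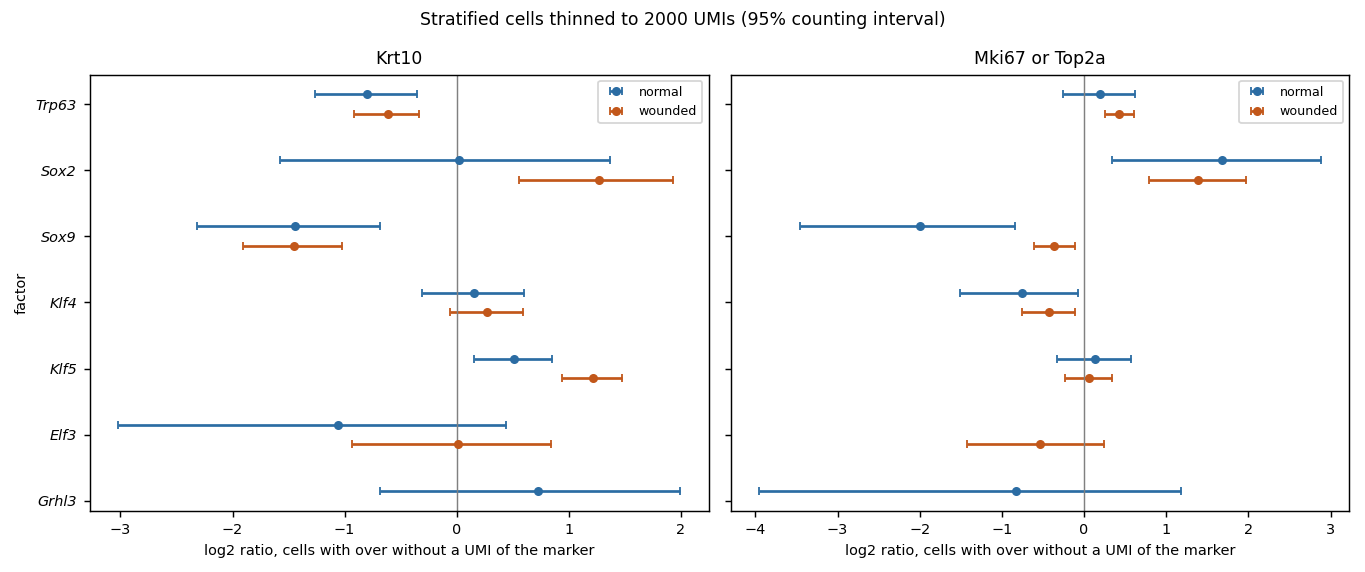
Log2 ratio of the summed UMIs of each factor in stratified cells with over without a UMI of Krt10 (left) or of Mki67 or Top2a (right), normal and wounded library, with 95% counting intervals, all cells thinned to 2000 UMIs. Trp63 and Sox9 lie left of 0 for Krt10 in both libraries, and Sox2 lies right of 0 for the division genes, at 1.67 and 1.39.

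Cells with both a squamous factor (Trp63 or Sox2) and an intestinal factor (Cdx1, Cdx2 or Hnf4a) were then counted. At 2000 UMIs per cell there were none in 835 normal stratified cells and none in 60 normal Rectum cells. The upper limits were 0.441% and 5.96% of cells with both UMIs at that depth. In the wounded library there were 4 in 3388 stratified cells, 5 in 354 Rectum cells (1.41%, 0.460 to 3.27%) and 1 in 184 Hybrid cells (0.543%, 0.0138 to 2.99%). Means over 20 random thinnings were 0.213% in the stratified, 0.593% in the Rectum and 0.245% in the Hybrid cells, so the single thinning overstated the last pair. At full depth the counts were 4 of 876 and 1 of 63 in the normal library and, in the wounded library, 90 of 3434 stratified cells (2.62%), 26 of 397 Rectum cells (6.55%) and 8 of 316 Hybrid cells (2.53%). Most of the stratified pairs joined Trp63, present in 2638 of the 3434 cells, with an intestinal factor, found in 124. Of the 397 wounded Rectum cells, 29 had a squamous and 296 an intestinal factor. The Hybrid share did not exceed that of the stratified cells by more than its interval (1.10 to 4.93% at full depth). The wounded Rectum share lay above that of the stratified cells (4.32 to 9.45%), but the intervals overlapped once the highest doublet scores were left out, as given below. Hybrid cells had a median of 2390 UMIs, against 8532 to 12616 UMIs in the wounded stratified clusters. The full-depth shares of Hybrid and stratified cells were thus not at equal depth, as the thinned means of 0.245% and 0.213% were.

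The cells that held both kinds of factor were deep. Asking for a UMI of both kinds in itself favours deep cells. In the wounded Rectum their median was 19166.5 UMIs, against 12421 UMIs in the 270 cells with an intestinal factor alone, and 13 of the 26 were among the 6% of barcodes with the highest doublet scores, against 12 of the 270. They also held keratins of both epithelia, with Krt14 at 2001 CPM and Krt8 at 1426 CPM, against 78.9 and 2512 CPM in cells with an intestinal factor alone. In Hybrid the median was 12831 UMIs and 6 of 8 had such a score, and in the stratified cells it was 14628.5 UMIs and 8 of 90. Of the wounded stratified cells with a squamous factor alone, 128 of 2593 had such a score. When those barcodes were left out, 13 of 369 Rectum cells (3.52%) and 2 of 281 Hybrid cells remained at full depth. With at least 2 UMIs on each side the wounded Rectum had 14 of 397 cells. Whether single cells or doublets carried these pairs was not tested.

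**Figure D5:**
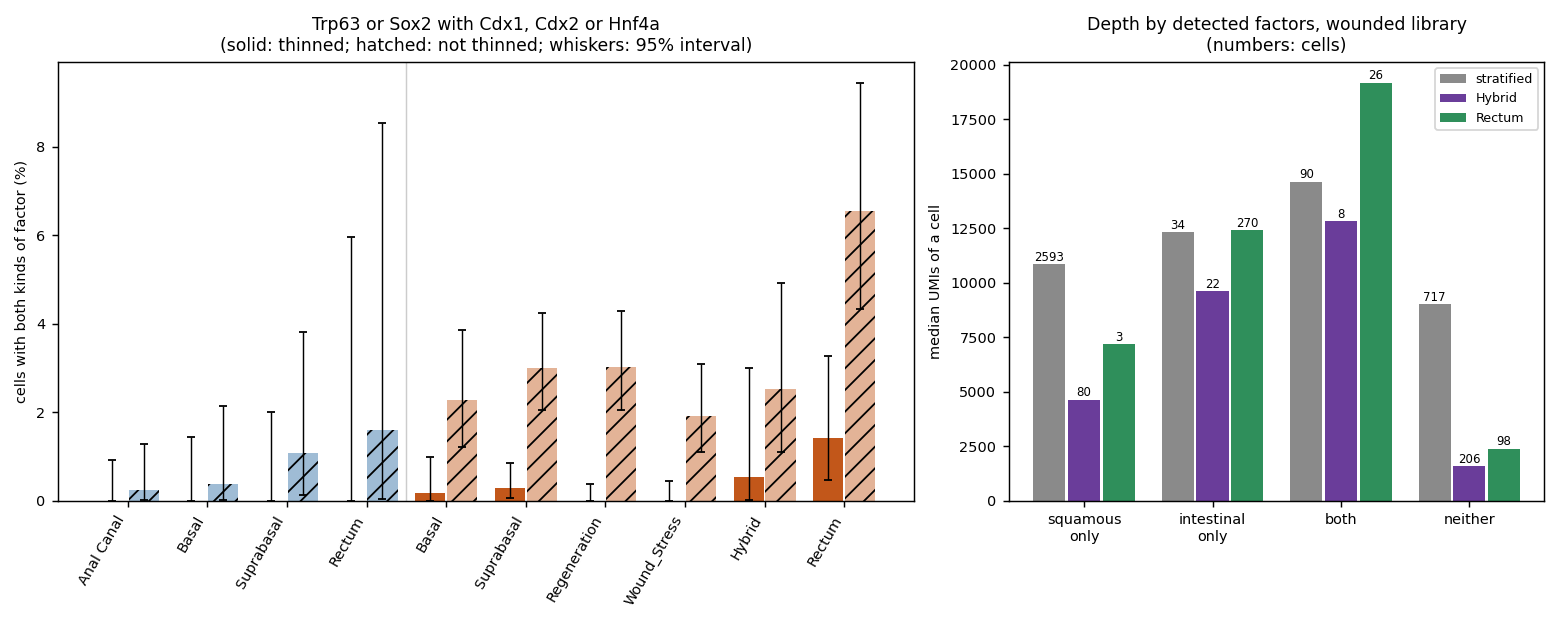
Left, share of cells (%) with a UMI of Trp63 or Sox2 and a UMI of Cdx1, Cdx2 or Hnf4a in the 4 normal (blue) and 6 wounded (orange) clusters, thinned to 2000 UMIs (solid) and not thinned (hatched), with exact 95% intervals, and right, the median UMIs of wounded stratified, Hybrid and Rectum cells by the factors detected, with the number of cells above each bar. The wounded Rectum has the highest share, 6.55% at full depth and 1.41% thinned, and its cells with both kinds of factor have the highest median depth, 19166.5 UMIs.

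Intestinal factors in stratified cells were few. The proportion of Cdx1 to Hnf4a was compared with that in Rectum. Cdx1 made up 70.5% (67.7 to 73.3%) of the UMIs of both genes in the wounded Rectum, with 754 UMIs against 315 of Hnf4a, and 39.0% (31.1 to 47.5%) in the wounded stratified cells, 57 against 89 UMIs of Hnf4a. Suprabasal (38.9%), Regeneration (35.6%) and Wound_Stress (37.5%) were each below the Rectum by their intervals, while the wounded Basal cells, at 53.3% (26.6 to 78.7%), overlapped with it. The wounded cells that passed the filters but were in no named cluster had 8 UMIs of Cdx1 and 27 of Hnf4a. The source of the UMIs in stratified cells was not tested. In the normal library the proportion was 76.0% (71.1 to 80.5%) in Rectum and 69.2% (38.6 to 90.9%) in the stratified cells, the latter on 13 UMIs. The 6 normal Basal cells with an intestinal factor alone had Chga, an enteroendocrine gene, at 5477 CPM, and 4 of the 6 were among the highest doublet scores.

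Other pairs of factors were also counted. Trp63 and Sox9 were seen together in 653 of 991 Regeneration cells, 564 of 1032 wounded Suprabasal cells and 60 of 573 wounded Basal cells at full depth, and in 138 of 986, 99 of 1020 and 7 of 564 when thinned. Trp63 and Sox2 were together in 177 of 573 wounded Basal and 87 of 432 normal Anal Canal cells. Sox2 and Sox9, which divided the clusters between them, were together in 30 of the 573 wounded Basal cells. There Sox2 was seen in 213 cells and Sox9 in 71 cells. In Regeneration Trp63 was seen in 810 cells and Sox9 in 783 cells. Whether any pair was more frequent than its single counts would give was not tested. Cdx1 and Hnf4a were together in 39 of 63 normal and 156 of 397 wounded Rectum cells.

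Over the 10 clusters, Cdx1 and Hnf4a followed each other (Pearson r = 0.98 of log2(CPM + 1)), Trp63 ran against Cdx1 (r = -0.91) and Sox2 against Sox9 (r = -0.63). These are descriptions over 10 clusters of 2 libraries that share depth and handling. Of 11606 genes compared, those most like Trp63 were Rhod (r = 0.99), Kctd15 and Pltp, those most like Sox2 were Thbd (r = 0.97), Adam8 and Pi15, and those most like Grhl3 were Uqcc2 (r = 0.96), Tbcb and Dynll1. Noxo1 (r = 0.99), Smim24 and Smpd3 were most like Cdx1, and B3gnt5 (r = 0.99), Tmem253 and Irf8 most like Hnf4a. Mgat3 (r = 0.98), the keratin Krt19 and Rasa4 were nearest to Elf3, 2610528A11Rik (r = 0.95), Oxnad1 and Dstn to Klf5, Sys1 (r = 0.91), Sertad1 and Fhl2 to Klf4, and Vegfa (r = 0.94), Pex11a and Fzd7 to Sox9. For Cdx2, with few UMIs, Ufsp2 (r = 0.93), Ang4 and Copb2 came nearest, a likeness that rests on 8 UMIs of Cdx2 in all.

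Cells that passed the stated filters but were in neither table of named cells numbered 610 in the normal and 1078 in the wounded library. They had Trp63 at 241 and 112 CPM and Sox9 at 187 and 159 CPM, while Klf5 was at 30.6 and 21.4 CPM and Cdx1 at 0.334 and 0.674 CPM. Hnf4a was at 0.167 CPM on 1 UMI and at 2.28 CPM on 27 UMIs, the latter beside 2.36 CPM in the wounded stratified cells. The low level of Hnf4a in wounded stratified cells was thus not particular to them. Their fibroblast markers summed to 1049 and 3706 CPM and their anal gland markers to 979 and 1079 CPM, groups that the authors had removed before naming the clusters. The anal gland markers did not set the left-out cells apart in the wounded library. They summed to 1130 CPM in Regeneration and 551 CPM in Wound_Stress, both among the named clusters. In the named normal clusters they summed to 43.4 to 242 CPM.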

How the data were processed

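Single-cell 3′ RNA libraries were made with the 10x Genomics protocol from 1 normal and 1 wounded pool of sorted cells. Per the file headers, the authors' counts came from Cell Ranger 3.1.0 (normal) and 4.0.0 (wounded), while the submitters' processing notes list 3.1.0 for both, with mm10 and Seurat 3.2.2. The deposited matrices hold raw UMI counts for 2564 and 17216 barcodes, 17617944 and 88260050 UMIs in all. The authors kept cells with more than 200 and fewer than 5000 genes and under 25% mitochondrial counts, removed hair follicle, fibroblast and anal gland clusters, and named the rest. Those filters left 1548 and 5225 barcodes here. The deposited tables name 939 and 4147 cells, and 1 of the normal ones does not pass the stated filters. The values of the deposited tables are on a natural log scale, ln(1 + x) with x whole, and the step that gave x is not given in the sources used here, so they served only as an alternative. The gene lists of the 2 count matrices differ (31054 and 32285 features), and comparisons between libraries used shared gene IDs.

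For each cluster, the UMIs of its cells were added up (Python 3.11.15, numpy 2.4.6, scipy 1.17.1, pandas 2.3.3), because cells are not replicates. Levels are UMIs of the gene per 1000000 UMIs (CPM) with exact Poisson 95% intervals, log2 ratios have exact binomial intervals, and shares have exact Clopper-Pearson intervals. These cover counting error only, and UMIs at 3′ ends do not allow levels to be compared between genes. A gene was counted past 2-fold with at least 20 UMIs over both sets of cells, and a side with no UMI was set to 3 UMIs over that set. Stratified cells are all named cells other than Rectum and Hybrid. For shares and co-detection each cell was thinned to 2000 UMIs, which left out 44 and 221 cells. Scrublet (scanpy 1.11.5) called 4 of 1548 and 0 of 5225 barcodes and so had not worked as a caller. The 6% with the highest scores (41 and 231 named cells) were left out as an alternative instead. The sums and intervals were tested on simulated data.

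The factors and lists were chosen with earlier results of these data known. The genes named are the 10 factors, for each the 3 genes with the highest Pearson r of log2(CPM + 1) over 10 clusters (at least 100 UMIs), and the genes of each companion list with the largest and smallest ratio past 2-fold. A gene that this rule picks in 1 comparison is not reported here. Other alternatives were means of per-cell levels, leaving out the 6% deepest cells, cells under 10% mitochondrial UMIs, at least 100 UMIs or no minimum, totals without mitochondrial and ribosomal genes, and thinning to 1000 or 4000 UMIs. The comparisons of differently named clusters across libraries, and the co-detection counts without high-scoring or other-type cells at full depth, were added after seeing the data.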

Additional observations from a re-analysis of the deposited data

Results flagged for a closer look

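The ratio of the cluster named Suprabasal over that named Basal had opposite signs in the libraries for 3 factors, each with an interval clear of 0 in both. Sox9 had a log2 ratio of -0.24 (-0.46 to -0.02) in the normal library, within 2-fold, and 3.32 in the wounded library, a difference of 3.56. Klf4 was at -1.10 and 0.60, a difference of 1.71, and Grhl3 was at 2.79 and -0.98, a difference of -3.77. With 1 library per condition the difference was not tested. The wounded cells named Basal had Krt17 at 381 CPM and Krt10 at 1987 CPM, beside 2265 and 48.4 CPM in the normal Basal cells and 704 and 2228 CPM in the normal Anal Canal. In the wounded cells named Basal the stratified suprabasal markers summed to 8589 CPM, against 5531 CPM in the wounded Suprabasal cells. The part of these marker levels in the 3 differences was not tested.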

How the results depend on the processing

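Of the log2 ratios of single factors recomputed under the alternatives, 457 moved by less than their counting interval, 90 moved by more and 2 reversed. Both that reversed were Elf3 in wounded over normal Suprabasal cells, at -0.064 with means of per-cell levels and -0.38 in cells under 10% mitochondrial UMIs, on 10 normal UMIs. The number of factors past 2-fold moved by more than 1.5 times in 5 comparisons. A higher minimum of UMIs, or thinning under the same minimum, can leave fewer factors to count. Other causes were not tested. For Hybrid over stratified it was 2 when thinned and 3 with at least 100 UMIs, from 5. For normal Suprabasal over Basal it was 1 and 2 under the same settings, from 4. For wounded over normal Rectum it was 2 with means of per-cell levels, 2 under 10% mitochondrial UMIs, 2 with no minimum, 0 when thinned and 0 with at least 100 UMIs, from 1. For wounded over normal Suprabasal it was 2 without the deepest cells, 1 under 10% mitochondrial UMIs, 0 when thinned, 1 with at least 100 UMIs and 2 against normal Basal and Suprabasal together, from 4. For wounded over normal Basal it was 1 against the normal Anal Canal and 2 for Regeneration against normal Basal, from 4. Co-detection in the wounded Rectum was 6.55% not thinned, 3.53% with at least 2 UMIs on each side and 0% at 1000 UMIs, from 1.41%, and in Hybrid 0% at 1000 UMIs and 0% without the deepest cells, from 0.543%. Of the splits by marker, 37 moved by less than their interval at full depth and 5 by more, all in Cdx1, Klf4, Klf5 or Sox9. No paired analysis was possible because each condition is 1 library, and no library could be left out for the same reason. Low counts limit Cdx2, Grhl3 in wounded cells and every intestinal factor in stratified cells.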
